A study of Mus musculus with 12 samples.

Results

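Intraflagellar transport (IFT) and BBSome genes were followed through 3 sorted stages of mouse spermatogenesis in 2 strains. The group was defined by name: a probeset had to name exactly 1 gene whose current symbol or synonym begins with Ift or Bbs and a digit, or is *Wdr19*, *Wdr35*, *Traf3ip1*, *Cluap1*, *Ttc21b*, *Dync2h1*, *Dync2li1*, *Arl3*, *Arl6* or *Arl13b*. The rule itself uses no measured value, but it was chosen with earlier results of these data known. It found 38 genes when letter case was ignored, and 35 of them had a probeset of their own, out of 18193 genes so represented on the array. *Trim32*, *Hspb11* and *Ttc8* entered only through upper-case synonyms, and *Arl6* and *Arl13b* were not analysed here. The 35 genes had 52 probesets, 22 genes with 1 and 13 with more, and each gene was represented by the probeset with the highest mean over all arrays.

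IFT is the transport of cargo along the axonemal microtubules of cilia and flagella by trains built of the IFT-A and IFT-B complexes. Kinesin-2 carries the trains towards the tip, and dynein-2, assisted by IFT-A, returns them to the base. The BBSome is an adaptor complex that links membrane proteins to the trains, and chaperonin-like proteins help to assemble it. In the testis these genes are known for the sperm flagellum, whose axoneme is built in early spermatids, and several mouse mutants of IFT genes have short or malformed tails.

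The groups were PWD prepachytene, B6 prepachytene, PWD pachytene, B6 pachytene, PWD spermatids and B6 spermatids, with 2 arrays each and 12 in all. PWD (PWD/Ph in the labels) is an inbred strain of wild *M. m. musculus* origin and B6 (C57BL/6J) is a laboratory strain. The labels name no treatment and give an age of 8 to 10 weeks for all males, cells were isolated from the testis by flow sorting, and 15 to 40 ng of total RNA was amplified for an Affymetrix mouse expression array. The series description gives 2 animals, but no label tells whether a replicate number marks an animal, so that p-values measure only the spread between these samples. Populations were defined by the sort and were not pure. In such bulk samples fewer cells of a type and less RNA per cell cannot be told apart.

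Values are deposited log2 expression values, so that a difference of 1 is a 2-fold change. Depth has no counterpart on arrays, and the number of arrays limits the precision. Across the members the median SD of 2 replicates lay between 0.0743 in B6 spermatids and 0.222 in PWD prepachytene cells. The background level was 4.62, which 95% of 43 probesets for 26 genes typical of other organs did not exceed in their mean, and the probesets that represented the 35 members all had a mean above it, as did 9748 genes. Lists of marker genes followed the labels of the sorted cells. They were chosen with earlier results of these data known and are no independent check. In pachytene against prepachytene cells 24 of 26 prepachytene meiosis genes were lower and 14 of 18 pachytene and diplotene genes were higher. Of genes above the background level 41.2% were lower and 41.1% higher. In spermatids against pachytene cells 27 of 28 spermatid genes were higher, beside 25.7% of genes above the background level. The spermatid list nevertheless had mean log2 values of 10.96 and 11.39 in PWD and 10.35 and 10.27 in B6 prepachytene arrays, above or near its 10.72 and 9.97 in PWD and 10.24 and 10.11 in B6 pachytene arrays. The Sertoli cell list was at 7.47 and 7.25 in PWD and 6.70 and 6.24 in B6 prepachytene arrays, between 4.28 and 4.52 in pachytene arrays and between 4.83 and 5.68 in spermatid arrays. The spermatogonia list was at 6.47 and 7.03 in PWD and 6.42 and 6.26 in B6 prepachytene arrays, between 3.58 and 3.76 in pachytene arrays and between 3.48 and 3.98 in spermatid arrays, and 7 of its 11 genes were lower and 0 higher in pachytene than in prepachytene cells (median -3.12). The part of other cell types in the members' values was not tested.

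Promoter sequences of 31 of the 35 members were found in the RefSeq table of GRCm38.p6, which holds 300 bases a gene start, 250 before it and 50 from it on. Factors of the RFX family, which control ciliary genes, bind the X-box. It was searched on both strands as GTTNCC, any 2 bases and GGNAAC, and a short form as GTTGCC. The full form was present in 2 member promoters, *Bbs7* and *Ttc26*, 6.45% of 31 against 0.451% of all 32851 promoters and 0.716% of those of genes above the background level. The short form was present in 12 member promoters, 38.7% against 12.5% of all promoters and 14.1% of those of genes above the background level, and in *Bbs7* and *Ttc26* it lies inside the full form. The cAMP response element TGACGTCA, bound by CREM, a regulator of spermatid genes, was present in *Ift57* and *Mkks* (6.45%, against 1.79% and 3.39%). A match is a description of letters and no proof of binding. The sequences below are those of the 2 members with a full X-box, of *Ift140* and *Ift172*, which gained most in pachytene cells among the members with a short form, and of the 2 members with a cAMP response element. They are printed 5′ to 3′ on the strand of the gene with matches in capitals, and GGCAAC is the short form read on the other strand.
Bbs7, chr3:36613472-36613535, minus strand: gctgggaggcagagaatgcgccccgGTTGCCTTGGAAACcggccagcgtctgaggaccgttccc
Ttc26, chr6:38381466-38381555, plus strand: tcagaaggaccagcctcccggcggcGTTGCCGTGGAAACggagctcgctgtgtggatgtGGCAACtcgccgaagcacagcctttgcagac
Ift140, chr17:25015952-25016007, plus strand: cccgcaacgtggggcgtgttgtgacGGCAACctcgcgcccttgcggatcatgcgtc
Ift172, chr5:31291084-31291139, minus strand: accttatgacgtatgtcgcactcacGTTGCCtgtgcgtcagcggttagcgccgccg
Ift57, chr16:49699107-49699264, plus strand: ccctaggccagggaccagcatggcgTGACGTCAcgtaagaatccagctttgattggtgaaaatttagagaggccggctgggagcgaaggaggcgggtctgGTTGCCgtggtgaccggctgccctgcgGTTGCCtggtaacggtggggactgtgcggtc
Mkks, chr2:136891522-136891579, minus strand: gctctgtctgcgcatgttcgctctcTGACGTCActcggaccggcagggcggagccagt
The full X-box began 121 bases before the start on which the *Bbs7* window is placed and 33 bases before that of *Ttc26*. The gene table gives other starts for both genes. Read along the gene, that of *Bbs7* (36613492) lies after the match and that of *Ttc26* (38381464) before it, so that the distances depend on the start used. Of these 2 genes *Bbs7* was higher and *Ttc26* lower in pachytene than in prepachytene cells, and the 12 genes with a short form had a median log2 difference of 0.70 between pachytene and prepachytene cells, against 0.64 in the 19 without it.

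The first question was when during meiosis and spermiogenesis these genes reach their highest level. Of the 35 members, 7 (20%) had their highest mean over both strains in prepachytene cells, 19 (54.3%) in pachytene cells and 9 (25.7%) in spermatids. Among the 9748 genes above the background level these shares were 42.8%, 30% and 27.2%. In 7 members all 4 pachytene arrays were above the other 8 arrays: *Ift140*, *Wdr19*, *Wdr35*, *Ift172*, *Ift27*, *Ift46* and *Dync2h1*. The same held for prepachytene arrays in *Mkks*, *Hspb11*, *Traf3ip1* and *Ttc26*, and for spermatid arrays in *Bbs5* and *Bbs12*. Arrays were apart in this way in 20% of members for pachytene, 11.4% for prepachytene and 5.71% for spermatid arrays. Among the 9748 genes above the background level these shares were 10.5%, 28.4% and 14.6%. The second *Wdr35* probeset had its highest mean in spermatids (10.24, against 9.58 in pachytene cells). The mean log2 over the 35 members was 10.31 and 10.06 in PWD and 10.08 and 9.87 in B6 prepachytene arrays, 10.72 and 10.93 in PWD and 10.49 and 10.34 in B6 pachytene arrays, and 9.99 and 10.09 in PWD and 9.86 and 9.79 in B6 spermatid arrays.

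**Figure D1:**
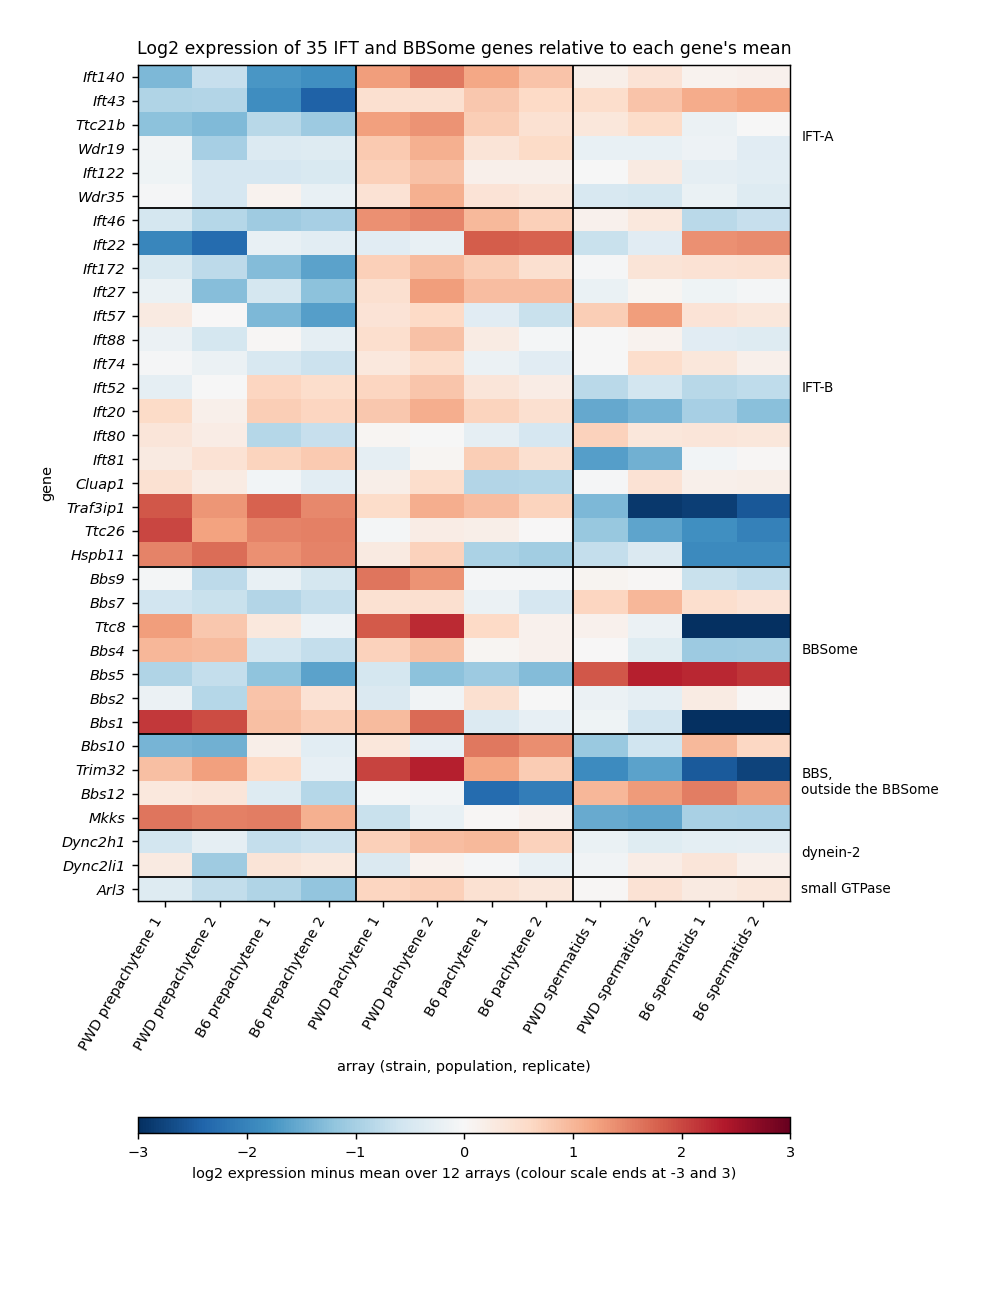
Log2 expression of each of the 35 genes (rows, grouped by complex) on each of 12 arrays (columns), given as the difference from that gene's mean over the arrays, red above and blue below it. All 6 IFT-A genes are on average redder in the pachytene than in the prepachytene columns, *Bbs5* is red only in spermatids, and *Hspb11*, *Ttc26* and *Traf3ip1* are reddest in prepachytene columns.

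In pachytene compared with prepachytene cells, 22 of the 35 members were higher and 7 were lower with an adjusted p under 0.05 from limma (Benjamini-Hochberg over 45037 probesets, mean of both strains, 4 arrays against 4). Of the 9748 genes above the background level 41.1% were higher and 41.2% lower, and of all 18193 genes 43.7% were higher and 28.4% lower. The median log2 difference was 0.64 in the members, 0.01 in genes above the background level and 0.08 in all genes. Between the complexes the counts were uneven: 6 of 6 IFT-A genes were higher (median 1.62), against 8 of 15 IFT-B genes higher and 4 lower, 4 of 7 BBSome genes higher and 1 lower, and 2 of 4 BBS genes outside the BBSome higher and 2 lower. When each array was left out in turn, 23 of the 29 calls stayed in every fit, and *Bbs4*, *Ttc8*, *Cluap1*, *Ift52*, *Ift74* and *Ift81* lost theirs in some.

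The gains were largest in IFT-A, the complex of return transport that also admits membrane proteins to the cilium. *Ift140*, a core subunit, had log2 values of 11.58 and 12.23 in PWD and 11.17 and 11.08 in B6 prepachytene cells, 14.17 and 14.50 in PWD and 14.09 and 13.77 in B6 pachytene cells, and 13.09 and 13.34 in PWD and 13.03 and 13.05 in B6 spermatids. Its 4 pachytene arrays were above all others and its prepachytene arrays below all others, a difference of 2.62 ± 0.16 (SE) or 6.14-fold (limma, adjusted p = 2.16e-06). *Ttc21b*, the large peripheral subunit IFT139, had 11.33 and 11.24 in PWD and 11.74 and 11.47 in B6 prepachytene cells, 13.80 and 13.91 in PWD and 13.30 and 13.01 in B6 pachytene cells, and 12.89 and 13.11 in PWD and 12.39 and 12.55 in B6 spermatids. It stood 4.17-fold higher in pachytene than in prepachytene cells (2.06 ± 0.10 in log2, adjusted p = 7.68e-07 from limma), and its second probeset gave 2.39 ± 0.23. *Ift43*, a small peripheral subunit, had 10.45 and 10.48 in PWD and 9.49 and 8.92 in B6 prepachytene cells, 11.83 and 11.84 in PWD and 12.15 and 11.95 in B6 pachytene cells, and 11.87 and 12.21 in PWD and 12.46 and 12.56 in B6 spermatids. Here pachytene arrays were above all prepachytene arrays (2.10 ± 0.14, adjusted p = 3.60e-06) while spermatids against pachytene cells gave 0.33 ± 0.14 and did not pass (adjusted p = 0.122, limma). That comparison passed under both other scalings, with 0.44 after quantile normalization again (adjusted p = 0.0177) and 0.58 after centring on the brighter probesets (0.00271), and with 0.33 without B6 prepachytene replicate 1 (0.0463) or replicate 2 (0.046). The other core subunits *Wdr19* (1.18 ± 0.20) and *Ift122* (0.88 ± 0.10) and the peripheral *Wdr35* (0.72 ± 0.17) were higher by less. The second *Wdr35* probeset, however, gave a larger difference of 2.95, so that the size for *Wdr35* depended on the probeset.

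Among IFT-B genes the change went in both directions. *Ift46*, a subunit needed for outer dynein arm transport in *Chlamydomonas*, had 10.95 and 10.61 in PWD and 10.40 and 10.48 in B6 prepachytene cells, 12.84 and 12.95 in PWD and 12.44 and 12.19 in B6 pachytene cells, and 11.60 and 11.78 in PWD and 10.66 and 10.79 in B6 spermatids. It was 3.99-fold higher in pachytene than in prepachytene cells (1.99 ± 0.11, limma adjusted p = 1.01e-06), and no pachytene array overlapped another population. *Ift22*, a Rab-like GTPase (1.96 ± 0.11), *Ift172*, a large peripheral subunit (1.75 ± 0.14), and *Ift27*, another Rab-like GTPase (1.70 ± 0.28), were higher as well. *Hspb11* (IFT25), the partner with which IFT27 forms a dimer, went the other way: its values were 13.01 and 13.18 in PWD and 12.89 and 12.99 in B6 prepachytene cells, 11.78 and 12.20 in PWD and 10.56 and 10.47 in B6 pachytene cells, and 10.79 and 11.07 in PWD and 9.60 and 9.60 in B6 spermatids. It was lower in pachytene by 1.76, a 3.4-fold difference (limma, adjusted p = 3.30e-06), with all prepachytene arrays above the others. *Ttc26* (IFT56), which in *Chlamydomonas* helps to carry inner dynein arm proteins, had 10.82 and 10.02 in PWD and 10.31 and 10.34 in B6 prepachytene cells, 8.77 and 9.04 in PWD and 9.00 and 8.84 in B6 pachytene cells, and 7.69 and 7.25 in PWD and 6.98 and 6.79 in B6 spermatids. Its arrays formed 3 separate levels, each lower than the one before (-1.46 ± 0.19, adjusted p = 2.70e-04, and then -1.74 ± 0.19, adjusted p = 1.71e-04, from limma).

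Of the genes of BBSome assembly, *Bbs10* was higher in pachytene than in prepachytene cells (1.52 ± 0.19) while *Mkks* and *Bbs12* were lower, although the 3 proteins act in 1 chaperonin-like complex. *Mkks* had 10.37 and 10.29 in PWD and 10.31 and 9.84 in B6 prepachytene cells, 8.11 and 8.55 in PWD and 8.81 and 8.90 in B6 pachytene cells, and 7.26 and 7.20 in PWD and 7.79 and 7.78 in B6 spermatids. All prepachytene arrays were above all pachytene arrays and those above all spermatid arrays (-1.61 ± 0.14 into pachytene, limma adjusted p = 1.92e-05). In the BBSome itself *Bbs9* (1.12 ± 0.17), *Bbs7* (0.77 ± 0.11), *Ttc8* (0.64 ± 0.22) and *Bbs4* (0.28 ± 0.11) were higher, *Bbs1* was lower (-0.93 ± 0.19), and *Bbs2* and *Bbs5* did not pass (-0.08 ± 0.20 and 0.07 ± 0.19). The motor subunit *Dync2h1*, the heavy chain of dynein-2, was higher by 1.38 ± 0.11 with no overlap, whereas its partner *Dync2li1* gave -0.13 ± 0.28 and did not pass. *Arl3*, a GTPase that releases lipid-modified cargo inside the cilium, was higher by 1.35 ± 0.12.

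**Figure D2:**
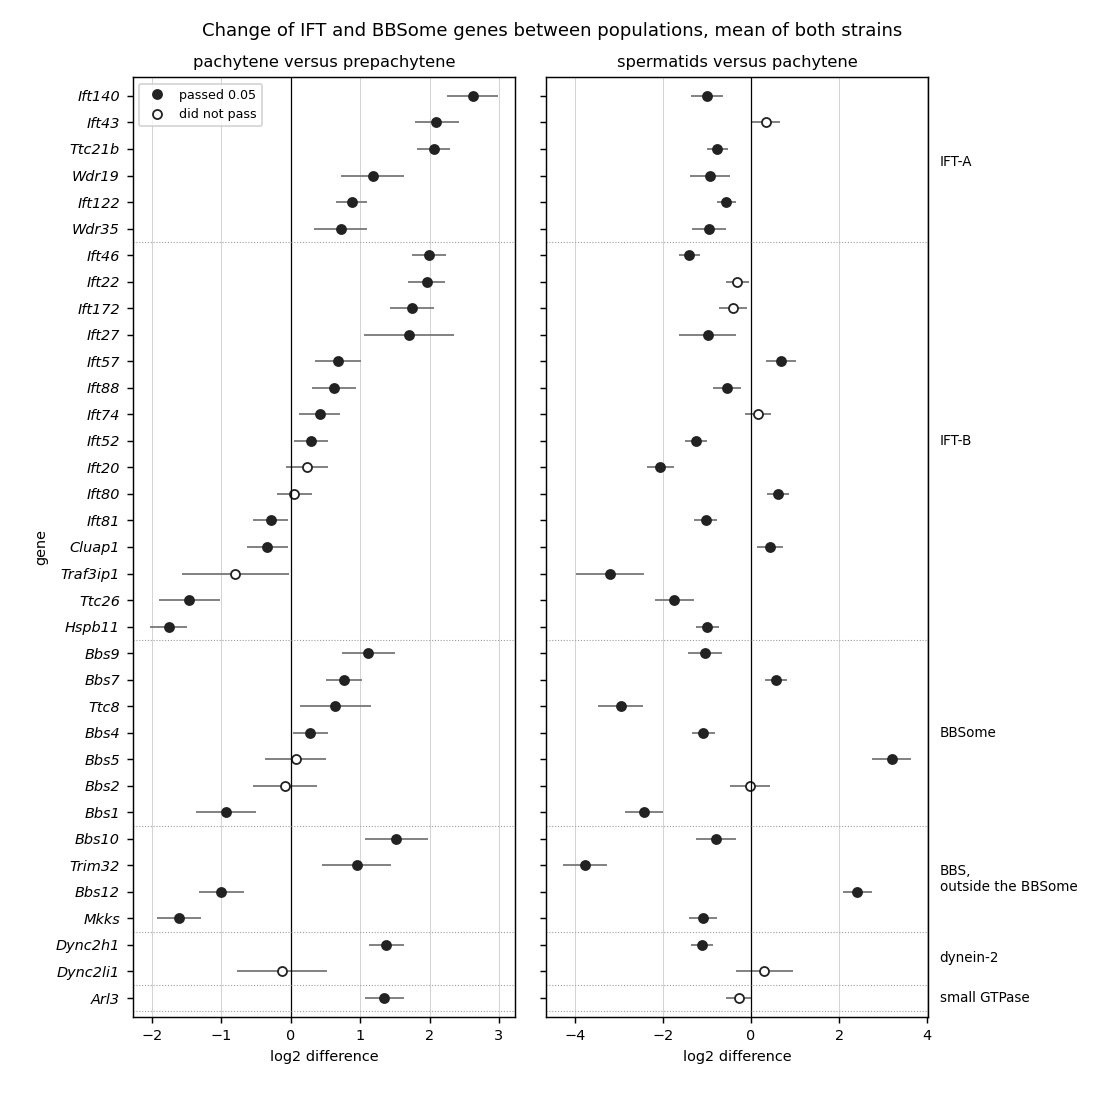
Log2 difference of each gene (rows, grouped by complex) for pachytene versus prepachytene on the left and spermatids versus pachytene on the right, mean of both strains, with 95% confidence intervals as lines and filled points for adjusted p under 0.05. On the left 22 filled points lie right of 0 and 7 left of it, in the other panel 6 right and 22 left of it, with *Bbs5* and *Bbs12* far to the right.

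In spermatids compared with pachytene cells, 22 members were lower and 6 were higher (limma, adjusted p under 0.05). Of the genes above the background level 41.5% were lower and 25.7% higher, and of all genes 23.8% were lower and 18.2% higher. The median log2 difference was -0.93 in the members, -0.26 in genes above the background level and 0.01 in all genes. This comparison uses the same 4 pachytene arrays as the previous one, so that the 2 are not independent. Lower were 5 of 6 IFT-A genes, 9 of 15 IFT-B genes, 4 of 7 BBSome genes and 3 of 4 BBS genes outside it. Higher were *Ift57*, *Ift80* and *Cluap1* of IFT-B, *Bbs5* and *Bbs7* of the BBSome, and *Bbs12*. On leaving out each array in turn, 24 of 28 calls stayed in every fit and those of *Bbs10*, *Cluap1*, *Ift27* and *Ift88* were lost in some.

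*Bbs5*, the BBSome subunit that binds phosphoinositides, had 9.44 and 9.64 in PWD and 9.13 and 8.74 in B6 prepachytene cells, 9.81 and 9.11 in PWD and 9.26 and 9.05 in B6 pachytene cells, and 12.20 and 12.69 in PWD and 12.61 and 12.50 in B6 spermatids. All 4 spermatid arrays were above the other 8, which overlapped each other, and the difference to pachytene was 3.19 ± 0.19 or 9.12-fold (limma, adjusted p = 7.19e-06). *Bbs12* had 8.01 and 8.07 in PWD and 7.31 and 6.84 in B6 prepachytene cells, 7.63 and 7.61 in PWD and 5.38 and 5.63 in B6 pachytene cells, and 8.70 and 8.98 in PWD and 9.24 and 8.98 in B6 spermatids. Spermatids were again above all other arrays (2.41 ± 0.14, adjusted p = 7.17e-06 from limma), by 1.22 ± 0.20 in PWD and 3.60 ± 0.20 in B6. *Ift57*, a peripheral IFT-B subunit, was higher by 0.67 ± 0.15 and *Cluap1* (IFT38), another one, by 0.43 ± 0.13. For *Cluap1* the change within PWD was -0.15 ± 0.18 and that within B6 1.02 ± 0.18, a difference between the strains that did not pass (adjusted p = 0.0506, limma).

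The deepest falls were in BBS genes and in 2 peripheral IFT-B subunits. *Trim32*, an E3 ubiquitin ligase in which a BBS mutation was described, had 7.16 and 7.47 in PWD and 6.84 and 6.00 in B6 prepachytene cells, 8.27 and 8.58 in PWD and 7.42 and 7.01 in B6 pachytene cells, and 4.37 and 4.65 in PWD and 3.73 and 3.47 in B6 spermatids. Spermatid arrays lay below all others and 3 of the 4 were below the background level, so that the fitted difference of -3.76 ± 0.22 (limma, adjusted p = 6.50e-06) depends on the floor. Within B6, where both spermatid arrays were below that level, the fall was at least 6.02-fold when the level stands for them. *Traf3ip1* (IFT54), which binds microtubules and IFT20, had 9.59 and 9.06 in PWD and 9.50 and 9.17 in B6 prepachytene cells, 8.28 and 8.81 in PWD and 8.65 and 8.40 in B6 pachytene cells, and 6.38 and 4.83 in PWD and 4.91 and 5.20 in B6 spermatids. Its spermatid arrays were all below its pachytene arrays (-3.20 ± 0.33, a 9.21-fold fall, adjusted p = 1.19e-04 from limma), and its lower level in pachytene than in prepachytene cells did not pass (-0.80 ± 0.33, adjusted p = 0.0611) although the arrays did not overlap. The spermatid values of 4.83, 4.91 and 5.20 were close to the background level, so that the size of the *Traf3ip1* fall is uncertain. *Ift20*, which also resides at the Golgi, had 9.78 and 9.37 in PWD and 9.96 and 9.86 in B6 prepachytene cells, 10.03 and 10.30 in PWD and 9.87 and 9.70 in B6 pachytene cells, and 7.68 and 7.82 in PWD and 8.22 and 7.95 in B6 spermatids. It was 4.17-fold lower in spermatids than in pachytene cells (-2.06 ± 0.13, limma adjusted p = 9.97e-06), with all spermatid arrays below the other 8.

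Within the BBSome, subunits that sit in 1 complex ended at different levels relative to their own pachytene values. *Bbs5* and *Bbs7* rose by 3.19 and 0.57, *Bbs2* gave -0.02 ± 0.20, and *Bbs4* and *Bbs9* fell by 1.08 and 1.05. The falls of *Bbs1*, which contacts the GTPase ARL6, and of *Ttc8* (BBS8) were larger (-2.43 ± 0.19 and -2.96 ± 0.22, adjusted p = 2.54e-05 and 2.14e-05 from limma), and the *Bbs1* value depends on the floor, as both B6 spermatid arrays were below the background level. The *Ttc8* value does so in part, as its B6 spermatid values of 5.23 and 4.56 lay close to that level, on either side of it. The change within PWD minus that within B6 was 1.52 ± 0.37 for *Bbs1* and 1.81 ± 0.44 for *Ttc8*, and neither difference passed (limma, adjusted p = 0.0719 and 0.0701). Levels of different genes were not set against each other, since probesets differ in response.

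**Figure D3:**
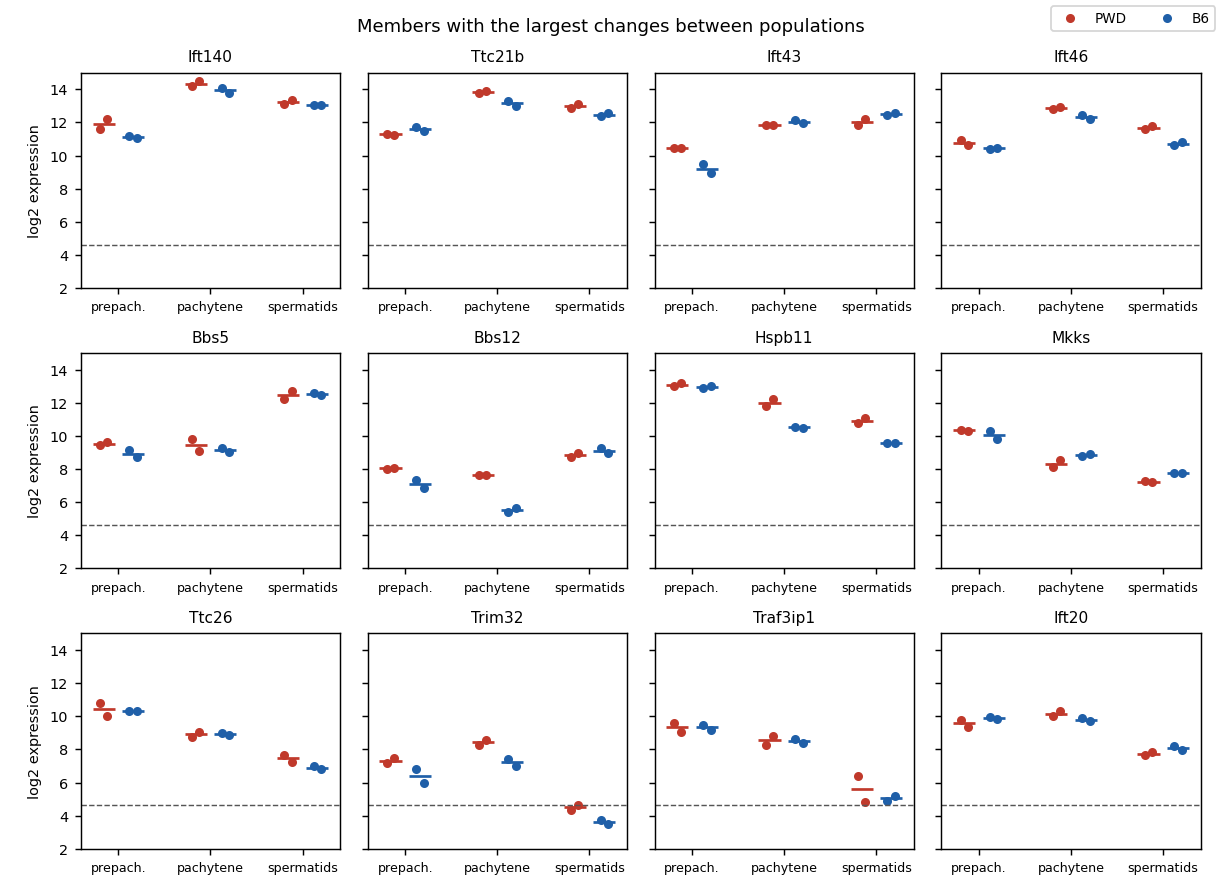
Log2 expression (vertical axis) of 12 genes with large changes between populations (horizontal axis), PWD in red to the left of B6 in blue, with a point for each array, a bar for the mean of 2 arrays and a dashed line at the background level of 4.62. *Bbs5* and *Bbs12* are highest in spermatids, and 3 of 4 spermatid points of *Trim32* lie below the dashed line.

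Across the whole span, spermatids against prepachytene cells, 16 members were higher and 11 lower, while among genes above the background level 41.4% were higher and 47.4% lower. Under other scalings of the arrays the members split into 23 higher and 10 lower (each array centred on its brighter probesets) or 21 and 10 (quantile normalization again). The split of the 9748 genes above the background level moved as well, to 4855 higher and 3889 lower or 4705 and 3996. As deposited, the members' median was 0.25, against -0.22 in genes above the background level. The largest rises were *Bbs5* (3.26 ± 0.19) and *Ift43* (2.44 ± 0.14), and *Traf3ip1* (-4.00 ± 0.33) and *Ttc26* (-3.20 ± 0.19) fell far. The size for *Traf3ip1* rests in part on spermatid arrays close to the background level. *Bbs1* gave -3.37, a value that depends on the floor in B6 spermatids, and -2.38 ± 0.26 within PWD, where no array was below the background level. The scaling also moved the median of all genes above the background level, which was 0.01 for pachytene against prepachytene, -0.26 for spermatids against pachytene and -0.22 for spermatids against prepachytene as deposited and 0.36, -0.02 and 0.36 after centring. The members' median minus that of these genes was 0.63, -0.68 and 0.47 as deposited. Centring shifts all genes of an array alike, so that it cannot change these gaps. After quantile normalization again they were 0.40, -0.55 and 0.37.

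Genes with several probesets above the background level, 9 in number, gave the same sign in all 9 for pachytene against prepachytene and in 6 of 9 for spermatids against pachytene. *Ift80*, a peripheral IFT-B subunit, had probesets called in opposite directions. Its brighter probeset had 10.55 and 10.40 in PWD and 9.32 and 9.49 in B6 prepachytene cells, 10.23 and 10.17 in PWD and 9.90 and 9.67 in B6 pachytene cells, and 10.86 and 10.51 in PWD and 10.54 and 10.51 in B6 spermatids. The other had 10.03 and 9.41 in PWD and 10.57 and 10.36 in B6 prepachytene cells, 10.78 and 11.26 in PWD and 11.59 and 11.16 in B6 pachytene cells, and 8.07 and 7.90 in PWD and 8.00 and 8.22 in B6 spermatids. In spermatids against pachytene cells the first rose by 0.61 ± 0.11 (adjusted p = 0.00259) with no overlap of arrays, and the second fell by 3.15 (adjusted p = 7.03e-06, limma) with no overlap either. The direction of *Ift80* therefore depended on the probeset. In spermatids against prepachytene cells *Ift80* (0.66 and -2.04) and *Bbs4* (-0.80 ± 0.11 and 0.44 ± 0.16, limma adjusted p = 3.05e-04 and 0.0388) both had opposite calls. *Wdr35* also split: its brighter probeset fell by 0.95 in spermatids against pachytene cells, whereas the other was higher in pachytene than in prepachytene cells by 2.95 ± 0.25 and gave 0.67 ± 0.25 in spermatids (adjusted p = 0.0876, limma). The second probeset of *Ift122* gave 0.06 ± 0.17 in place of a fall.

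**Figure D4:**
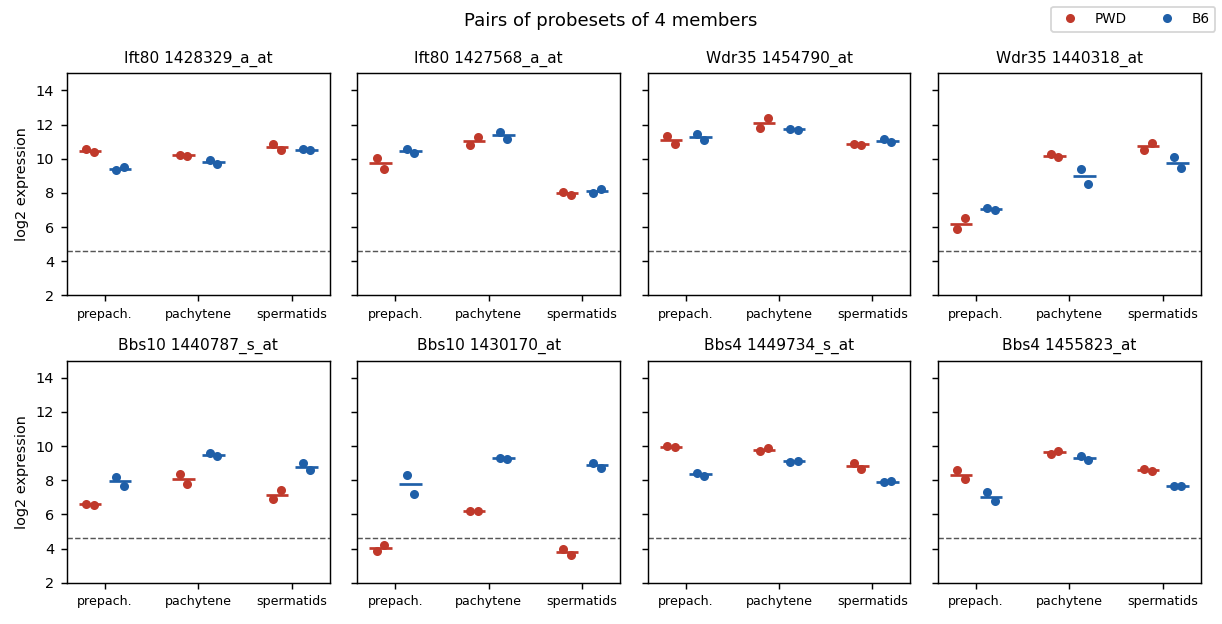
Log2 expression (vertical axis) of pairs of probesets of *Ift80*, *Wdr35*, *Bbs10* and *Bbs4* in the 3 populations (horizontal axis), PWD in red to the left of B6 in blue, with points for arrays, bars for means of 2 arrays and a dashed line at the background level of 4.62. The 2 *Ift80* probesets part in spermatids, near 10.5 and near 8, and the second *Bbs10* probeset is below the line in PWD prepachytene cells and spermatids.

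Other parts of the pathway were counted in the same way. Of 5 kinesin-2 genes, which carry the outward transport, 2 were higher in pachytene than in prepachytene cells and 2 higher in spermatids than in pachytene cells, with 0 lower in either comparison. These were *Kif3a* (0.84) and *Kif3b* (3.07) in the first and *Kif17* (3.16) and *Kifap3* (1.95) in the second. Of 8 other dynein-2 subunits 5 were higher and 3 lower in the first comparison, and 3 higher and 1 lower in the second. Transition zone genes numbered 9 higher and 4 lower of 18, then 7 and 6. Ciliary GTPases and cargo carriers numbered 6 higher and 8 lower of 15, then 4 and 5, distal appendage genes 6 and 2 of 10, then 5 and 5, and planar polarity effectors 1 and 1 of 5, then 0 and 0. Of 10 transcription factors of ciliary or spermatid genes 7 were higher and 3 lower in the first comparison and 5 higher and 2 lower in the second. Of the RFX factors, *Rfx2* (1.81) and *Rfx4* (3.74) were higher and *Rfx1* (-0.99), *Rfx3* (-0.61) and *Rfx7* (-1.77) lower in pachytene than in prepachytene cells, and in spermatids against pachytene cells *Rfx1* (3.47) and *Rfx3* (3.36) were higher and *Rfx4* (-1.45) and *Rfx7* (-3.62) lower. Differences between these lists and the members were not tested.

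The second question was whether PWD and B6 differed. Probes were designed on a reference close to B6, and a PWD base change in a probe target can reduce its signal. In prepachytene cells 8 members were higher and 4 lower in PWD than in B6 (limma, adjusted p under 0.05), where 24.5% of genes above the background level were higher and 8.41% lower. In pachytene cells 14 were higher and 3 lower (20.2% and 6.75%), and in spermatids 5 were higher and 3 lower (15.0% and 9.42%). The surplus of higher values in PWD was general: the median difference of genes above the background level was 0.30, 0.34 and 0.08 in the 3 populations, and that of the members 0.17, 0.42 and 0.04. After centring, the medians of genes were 0.04, 0.08 and -0.01, and the members split into 8 higher and 9 lower, 9 and 4, and 6 and 3. Genes above the background level then split into 2130 higher and 1834 lower, 1298 and 953, and 1426 and 1250. After quantile normalization again the members' splits were 7 and 7, 7 and 5, and 9 and 3. Those of genes above the background level were 1949 and 1443, 1016 and 915, and 1603 and 1099. Calls that kept their direction under both scalings numbered 11 in prepachytene cells (*Ift140* was lost), 10 in pachytene cells and 8 in spermatids.

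Lists of cell type markers were compared between the strains as well. The Sertoli counts in prepachytene cells were near the shares of genes above the background level, but only 8 of the 13 Sertoli genes were above it. The median difference between PWD and B6 in prepachytene cells was 1.08 in the Sertoli list and 0.92 in the spermatid list, against 0.30 in genes above that level. In prepachytene cells 10 of 28 spermatid genes and 3 of 13 Sertoli genes were higher in PWD, with 0 and 1 lower, beside the 24.5% higher and 8.41% lower among genes above the background level. In spermatids 0 of 28 spermatid genes were higher and 5 lower in PWD, beside 15.0% and 9.42%, and the list had 12.88 and 13.36 in PWD against 13.65 and 13.67 in B6. Their part in the strain differences of the members was not tested.

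*Ift22* and *Bbs10* were lower in PWD in each population. *Ift22* had 7.65 and 7.29 in PWD against 9.38 and 9.28 in B6 prepachytene cells, 9.27 and 9.37 against 11.42 and 11.36 in pachytene cells, and 8.94 and 9.25 against 10.96 and 11.02 in spermatids. No PWD array reached a B6 array of its population, and the differences of -1.86 ± 0.16, -2.07 ± 0.16 and -1.89 ± 0.16 (limma, adjusted p = 1.70e-04, 1.31e-04 and 1.64e-04) lay close together, with no dependence on the population passing the test (adjusted p = 0.702). *Bbs10* had 6.61 and 6.57 in PWD against 8.18 and 7.68 in B6 prepachytene cells, 8.35 and 7.77 against 9.59 and 9.41 in pachytene cells, and 6.90 and 7.41 against 8.98 and 8.62 in spermatids. PWD was lower by 1.34, 1.44 and 1.64 in the 3 populations (limma, adjusted p = 0.0119, 0.0127 and 0.00609). The second *Bbs10* probeset had 3.87 and 4.20 in PWD against 8.31 and 7.21 in B6 prepachytene cells, 6.21 and 6.17 against 9.32 and 9.24 in pachytene cells, and 4.00 and 3.61 against 8.98 and 8.74 in spermatids. PWD arrays were below the background level in prepachytene cells and spermatids, where B6 was at least 8.81-fold and at least 18.8-fold higher with that level in place of the PWD values. Both probesets thus gave lower PWD values, of different size, and the part of probe sequence was not tested. *Ift81*, which with IFT74 forms a tubulin-binding module, was lower in PWD as well, with 11.68 and 11.85 in PWD against 12.09 and 12.21 in B6 prepachytene cells, 11.14 and 11.48 against 12.15 and 11.91 in pachytene cells, and 9.76 and 9.99 against 11.34 and 11.45 in spermatids. The difference passed in pachytene cells (-0.72 ± 0.16) and spermatids (-1.52 ± 0.16), and the second probeset gave -2.53 ± 0.30 in spermatids. That second *Ift81* probeset also passed in prepachytene cells (-1.43). There the brighter probeset passed after quantile normalization again (-0.57, limma adjusted p = 0.00374) and after centring (-0.65, adjusted p = 0.00754).

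Several subunits of the BBSome were higher in PWD. *Bbs1* had 10.02 and 9.85 in PWD against 8.81 and 8.67 in B6 prepachytene cells, 8.84 and 9.60 against 7.49 and 7.66 in pachytene cells, and 7.78 and 7.33 against 4.49 and 4.27 in spermatids. PWD arrays were above B6 arrays in every population, by 1.19 ± 0.26, 1.65 ± 0.26 and 3.17 ± 0.26 (limma, adjusted p = 0.0165, 0.00562 and 1.48e-04). Both B6 spermatid arrays were below the background level, and PWD was at least 7.62-fold higher with that level in their place. *Ttc8* had 9.65 and 9.20 in PWD against 8.71 and 8.24 in B6 prepachytene cells, 10.23 and 10.62 against 9.00 and 8.53 in pachytene cells, and 8.51 and 8.22 against 5.23 and 4.56 in spermatids. It was higher in PWD pachytene cells (1.66 ± 0.31) and spermatids (3.47 ± 0.31, limma adjusted p = 2.20e-04), and the prepachytene difference of 0.95 ± 0.31 did not pass. The size in spermatids depends in part on the floor, as the B6 array at 4.56 was below the background level. *Bbs4*, which binds the centriolar satellite protein PCM1, had 9.98 and 9.95 in PWD against 8.45 and 8.27 in B6 prepachytene cells, 9.69 and 9.90 against 9.06 and 9.13 in pachytene cells, and 9.00 and 8.63 against 7.89 and 7.93 in spermatids. PWD was higher in each population (1.60 ± 0.16, 0.70 ± 0.16 and 0.90 ± 0.16), with the pachytene call lost under both other scalings. *Bbs9* had 9.06 and 8.32 in PWD against 8.88 and 8.59 in B6 prepachytene cells, 10.72 and 10.47 against 9.08 and 9.07 in pachytene cells, and 9.19 and 9.14 against 8.45 and 8.36 in spermatids. Strains overlapped in prepachytene cells and were apart in pachytene cells (1.52 ± 0.24, limma adjusted p = 0.00468). *Bbs7* had 10.26 and 10.17 in PWD against 9.96 and 10.13 in B6 prepachytene cells, 11.30 and 11.32 against 10.65 and 10.33 in pachytene cells, and 11.47 and 11.82 against 11.34 and 11.25 in spermatids, and PWD was higher in pachytene cells (0.82 ± 0.16). That *Bbs7* call was lost after quantile normalization again (0.37, limma adjusted p = 0.0953) and with the mean of its probesets (0.36, adjusted p = 0.144). *Bbs2* had 7.58 and 6.91 in PWD against 8.61 and 8.20 in B6 prepachytene cells, 7.33 and 7.66 against 8.25 and 7.74 in pachytene cells, and 7.58 and 7.49 against 8.01 and 7.80 in spermatids, and here PWD was lower in prepachytene cells (-1.16 ± 0.28).

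**Figure D5:**
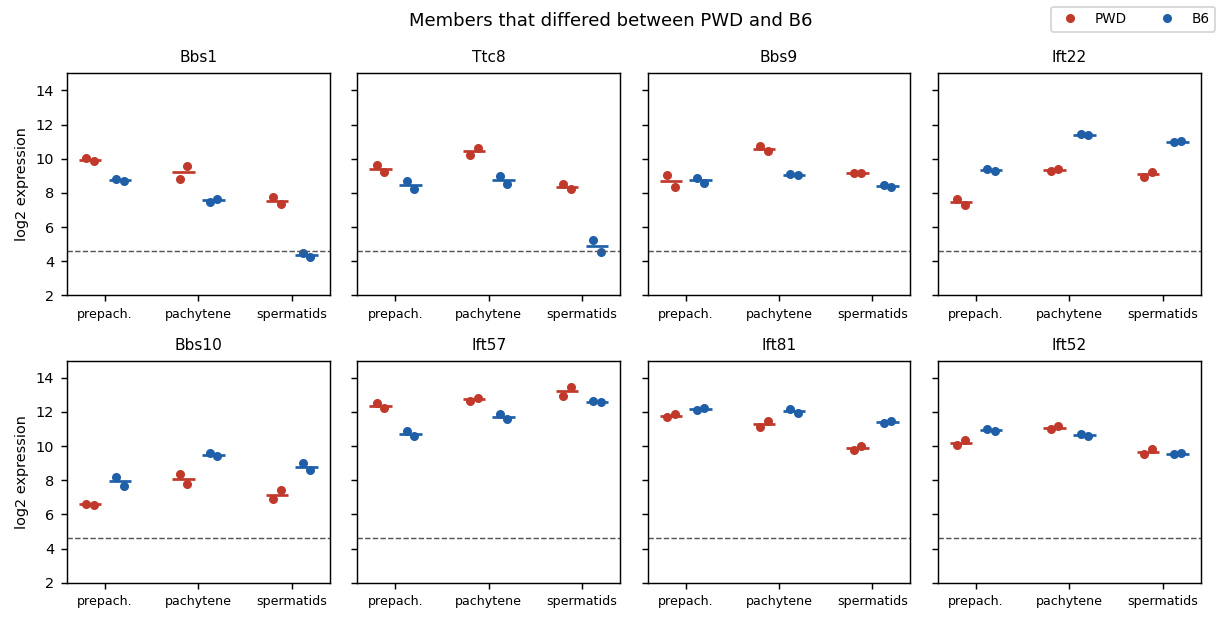
Log2 expression (vertical axis) of 8 genes that differed between the strains in the 3 populations (horizontal axis), PWD in red to the left of B6 in blue, with points for arrays, bars for means of 2 arrays and a dashed line at the background level of 4.62. *Ift22* and *Bbs10* are lower in PWD throughout, and the gap of *Bbs1* and *Ttc8* is widest in spermatids.

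The other IFT genes passed in 1 or 2 populations. *Ift57* had 12.50 and 12.23 in PWD against 10.87 and 10.56 in B6 prepachytene cells, 12.64 and 12.81 against 11.88 and 11.56 in pachytene cells, and 12.95 and 13.47 against 12.62 and 12.55 in spermatids. PWD was higher by 1.65 ± 0.21 in prepachytene and 1.00 ± 0.21 in pachytene cells (limma, adjusted p = 0.00111 and 0.0172). *Hspb11* was higher in PWD pachytene cells (1.48 ± 0.16) and spermatids (1.33 ± 0.16) and not in prepachytene cells (0.15 ± 0.16, adjusted p = 0.653). In prepachytene cells *Ift43* (1.26 ± 0.19), *Ift80* (1.07 ± 0.15), *Ift172* (0.83 ± 0.19) and *Ift140* (0.78 ± 0.22) were higher in PWD and *Ift52*, a core IFT-B subunit, was lower (-0.72 ± 0.15). The second *Ift80* probeset gave the other direction and did not pass (-0.75 ± 0.26, limma adjusted p = 0.0941), and the mean of both probesets gave 0.16 (0.631). *Ift172* had 11.48 and 11.13 in PWD against 10.62 and 10.33 in B6 prepachytene cells, 12.64 and 12.87 against 12.67 and 12.40 in pachytene cells, and 11.90 and 12.31 against 12.37 and 12.39 in spermatids. *Ift52* had 10.06 and 10.34 in PWD against 10.98 and 10.87 in B6 prepachytene cells, 10.98 and 11.18 against 10.71 and 10.56 in pachytene cells, and 9.53 and 9.80 against 9.51 and 9.57 in spermatids. In both genes the strains were apart in prepachytene cells. *Cluap1* had 11.92 and 11.73 in PWD against 11.40 and 11.16 in B6 prepachytene cells, 11.66 and 11.99 against 10.60 and 10.62 in pachytene cells, and 11.45 and 11.90 against 11.62 and 11.64 in spermatids, with PWD higher in pachytene cells (1.22 ± 0.18). In pachytene cells *Ttc21b* (0.70 ± 0.15), *Ift74* (0.69 ± 0.18), *Ift122* (0.65 ± 0.14), *Ift46* (0.58 ± 0.15) and *Trim32* (1.21 ± 0.31) were higher in PWD too. Of these 5, 4 lost the call under both other scalings, and *Ttc21b* lost it under quantile normalization again. *Ift74* had 12.81 and 12.66 in PWD against 12.36 and 12.18 in B6 prepachytene cells, 13.16 and 13.37 against 12.66 and 12.49 in pachytene cells, and 12.82 and 13.35 against 13.17 and 12.98 in spermatids. *Ift122* had 13.36 and 13.00 in PWD against 12.99 and 13.04 in B6 prepachytene cells, 14.22 and 14.38 against 13.66 and 13.64 in pachytene cells, and 13.49 and 13.77 against 13.23 and 13.19 in spermatids. *Ift46* was also higher in PWD spermatids (0.96 ± 0.15). The remaining 12 members, among them *Bbs5*, *Mkks*, *Traf3ip1* and *Ift20*, passed in no strain comparison as deposited, with log2 differences between -0.75 and 0.61. Under other scalings some of them passed, all lower in PWD: *Mkks* in pachytene cells (-0.76 after quantile normalization again and -0.78 after centring, limma adjusted p = 0.0396 and 0.0382) and *Ift20* in prepachytene cells (-0.62 and -0.60, adjusted p = 0.0343 and 0.0361) under both, and *Ift88* (-0.51) and *Dync2li1* (-1.02) in prepachytene cells after centring. Alternatives other than scaling also gave higher values in PWD pachytene cells. There *Wdr35* passed with the mean of its probesets (0.80, limma adjusted p = 0.028). *Ift88* passed in a fit of only probesets above the background level (0.60, limma adjusted p = 0.0361).

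On leaving out each array in turn, all 8 spermatid calls stayed, but 5 of 12 prepachytene calls and 6 of 17 pachytene calls did. The pachytene count was 10 without B6 pachytene replicate 1, 7 without B6 pachytene replicate 2 and 7 without PWD pachytene replicate 2, against 17 with all arrays. Those that stayed were *Ift22*, *Ift43*, *Ift57*, *Ift80* (its brighter probeset) and *Bbs4* in prepachytene cells, and *Ift22*, *Hspb11*, *Cluap1*, *Bbs1*, *Bbs9* and *Bbs12* in pachytene cells.

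The size of the strain difference depended on the population in 10 members (F test of the interaction in limma, adjusted p under 0.05), where 24.7% of genes above the background level did, so that the share of 10 in 35 was near the background. *Bbs12* gave the lowest p (0.00292): PWD exceeded B6 by 0.97 ± 0.20 in prepachytene and 2.11 ± 0.20 in pachytene cells and differed by -0.27 ± 0.20 in spermatids. Between prepachytene and pachytene cells *Bbs12* fell in B6 (-1.57 ± 0.20) and gave -0.42 ± 0.20 in PWD (adjusted p = 0.101, limma). *Ift43* followed (0.00788), as its higher PWD level in prepachytene cells gave way to -0.21 ± 0.19 and -0.47 ± 0.19, then *Hspb11* (0.0105), *Ttc8* (0.0149), *Ift52* (0.0178) and *Bbs1* (0.0195). The 7 genes given array by array for their change between prepachytene and pachytene cells, *Ift140*, *Ift43*, *Ttc21b*, *Ift46*, *Hspb11*, *Mkks* and *Ttc26*, each passed in the same direction within PWD and within B6.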

How the data were processed

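For 12 arrays the authors deposited 1 table of log2 values with 45101 standard probesets. The submitters' processing notes name GCRMA (version not given in the sources used here), whereas the methods name RMA, for another array type. After removal of 64 controls, 45037 probesets entered a linear model (limma 3.58.1, R 4.3.3) of 6 group means, whose variance prior followed the mean level. Quantile normalization can shift many values where RNA content differs between populations. Of the probesets, 34945 named 1 gene, 932 several and 9160 none, and 204 of the named were missing from the RefSeq gene table. Members are given by counts, and array by array where they were among the 4 largest called changes in a direction without overlap, passed a strain test or the test of strain by population, or had opposite probesets. Members and lists were chosen with earlier results of these data known. Pairs of same-numbered samples deviated together only weakly, with correlations between -0.25 and 0.08 over 15 pairs of groups. Weak correlations cannot exclude that a replicate number marks an animal. Alternatives covered scaling, probeset choice, filters, variance priors, thresholds, blocks and left-out arrays. Scripts were tested on simulated data. Tables were made with pandas 2.3.3 and numpy 2.4.6 and plots with matplotlib 3.10.9, under Python 3.11.15.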

Additional observations from a re-analysis of the deposited data

Results flagged for a closer look

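In 10 members the difference between PWD and B6 changed with the population (F test of the interaction in limma, with adjusted p-values over all probesets). In *Bbs12* (0.00292) PWD minus B6 was 0.97 in prepachytene cells, 2.11 in pachytene cells and -0.27 in spermatids. In *Ift43* (0.00788) it was 1.26 in prepachytene cells, -0.21 in pachytene cells and -0.47 in spermatids, and in *Ift52* (0.0178) -0.72 in prepachytene cells, 0.44 in pachytene cells and 0.13 in spermatids. In *Hspb11* (0.0105) it was 0.15 in prepachytene cells, 1.48 in pachytene cells and 1.33 in spermatids. In *Bbs1* (0.0195) it was 1.19 in prepachytene cells, 1.65 in pachytene cells and 3.17 in spermatids, and in *Ttc8* (0.0149) 0.95 in prepachytene cells, 1.66 in pachytene cells and 3.47 in spermatids, the BBSome genes with the widest gap in spermatids. Both gaps rest on B6 spermatid arrays below or near the background level. *Bbs9* (0.0374) gave -0.04 in prepachytene cells, 1.52 in pachytene cells and 0.75 in spermatids, *Ttc21b* (0.024) -0.32 in prepachytene cells, 0.70 in pachytene cells and 0.53 in spermatids and *Cluap1* (0.0409) 0.54 in prepachytene cells, 1.22 in pachytene cells and 0.04 in spermatids, each with its highest value in pachytene cells. *Ift81* (0.0236) gave -0.39 in prepachytene cells, -0.72 in pachytene cells and -1.52 in spermatids. With the mean of its probesets the F test did not pass for *Ift81* (limma adjusted p = 0.06). Of these 10, *Bbs12*, *Ift43* and *Hspb11* stayed called when each array was left out in turn, and among genes above the background level 24.7% passed this test.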

How the results depend on the processing

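Over 6020 alternative values of single members, 5529 kept their direction and their side of the threshold, 369 lost the threshold, 105 passed it and 17 turned in direction. Counts that moved by more than 1.5 times follow, for the members only. Shares of all genes at these settings are not given here, so that these counts cannot be set against the whole array. With a log2 difference of at least 1 required, 12 members were higher and 3 lower in pachytene than in prepachytene cells, 2 higher and 14 lower in spermatids than in pachytene cells, and 10 higher in spermatids than in prepachytene cells, and 10 passed between the strains in pachytene cells. At an adjusted p under 0.01 the strain counts were 5 in prepachytene and 6 in pachytene cells, and 2 members passed the test of strain by population. With only the arrays of the groups compared, 5 passed between the strains in prepachytene and 5 in pachytene cells, where fewer samples give the spread. Within B6 14 were higher in pachytene than in prepachytene cells, and within PWD 2 were higher in spermatids than in pachytene cells. On leaving out 1 array, counts ranged from 18 to 22 higher and 5 to 8 lower (pachytene against prepachytene), 5 to 7 higher and 19 to 24 lower (spermatids against pachytene), 15 to 18 higher and 11 to 11 lower (spermatids against prepachytene), 8 to 13, 7 to 16 and 8 to 9 called between the strains in prepachytene cells, pachytene cells and spermatids, and 5 to 13 for strain by population, with 5 without B6 prepachytene replicate 1 and 6 without B6 spermatids replicate 2.

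With the replicate block, that is the replicate number as a term, the counts in the same order were 21 and 6, 5 and 22, 15 and 11, then 12, 14 and 8, and 9, and with a replicate block within strain, chosen after seeing the data, 21 and 6, 5 and 21, 15 and 11, then 13, 13 and 9, and 7. No call count moved by more than 1.5 times under either block. Whether a replicate number marks an animal is not settled by these fits.

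Directions of single genes turned as follows, and the cause was not tested. With the probeset of largest variance, *Ift80* gave -3.15 in spermatids against pachytene cells, -2.04 against prepachytene cells and -0.75 between the strains in prepachytene cells, *Wdr35* gave 0.67 and 3.62 in the first 2 of these, *Ift122* gave 0.06 in the first and *Bbs4* 0.44 in the second. With the mean of a gene's probesets, *Ift80* gave -1.27 and -0.69 and *Wdr35* 1.69 in spermatids against prepachytene cells. After centring, *Cluap1* gave 0.00 and *Ift81* 0.05 in pachytene against prepachytene cells, and *Bbs2* gave 0.48 in spermatids against prepachytene cells and 0.59 after quantile normalization again. Within B6 *Ift52* gave -0.29, and within PWD *Bbs4* gave -0.17, in pachytene against prepachytene cells, and *Cluap1* gave -0.15 in spermatids against pachytene cells within PWD. The precision is limited by 2 arrays in a group. In spermatids *Trim32*, *Bbs1* and *Ttc8* had arrays below the background level, where values carry little information on the amount.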
